A study of Mus musculus with 6 samples.

Results

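Ces1d, a carboxylesterase that hydrolyses triglyceride, and 7 other genes of intracellular lipid hydrolysis are described here in mouse pancreatic islets. The 8 genes are Ces1d, Pnpla2, Lipe, Mgll, Abhd5, Abhd6, Lipa and Daglb, of 34945 genes in the count table. Ces1d was chosen by its difference between these same groups, so its values below are a description. The other 7 encode further lipid hydrolases and a coactivator, and were listed with earlier results of these libraries known. All 8 passed the filter on low counts, as did 14073 genes in all.

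Islets came from mice of the genotype RIP-Cre+, Rosa26-rtTA+. The Jag1 group was tetO_Jag1+ and the Control group tetO_Jag1-, and both groups drank doxycycline for 8 weeks. Jag1 is a ligand of Notch receptors. RIP-Cre expresses Cre recombinase from the rat insulin promoter, which is active in beta cells, and rtTA with doxycycline switches on the tetO allele. Control islets therefore also carried Cre and rtTA and received the drug. There were 3 libraries in each group, each sequenced from islets as a whole. Whether each numbered library is its own mouse is not said in the labels, and the spread that the p-values measure may thus be technical. Age, sex and strain are not given in the labels used here.

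Stored triglyceride is broken down stepwise. Pnpla2 (adipose triglyceride lipase), with its coactivator Abhd5, removes the first fatty acid. Lipe (hormone-sensitive lipase) acts mainly on the diacylglycerol that this leaves, and Mgll and Abhd6 on the monoacylglycerol. Lipa works in the lysosome, and Ces1d in the lumen of the endoplasmic reticulum. Daglb makes monoacylglycerol from membrane diacylglycerol. In beta cells, fatty acids and monoacylglycerol released by lipolysis are known to amplify glucose-stimulated insulin secretion.

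Total estimated counts per library ran from 14283469 to 34348729, with Jag1 2 the deepest. Jag1 itself was at 4.28, 4.01 and 4.01 CPM (a count rate scaled to each library's effective size) in Control 1 to 3, but at 838, 525 and 907 CPM in Jag1 1 to 3. These counts do not separate the transgene from the resident gene. All the libraries held Y-linked transcripts, and their beta cell markers were abundant, with Ins1 and Ins2 taking 11.4% to 18.8% of counts. Acinar markers, from the exocrine tissue around islets, took 6.88%, 2.62% and 0.308% of counts in Control 1 to 3, against 0.557%, 1.86% and 7.26% in Jag1 1 to 3. Control 1 and Jag1 3 thus stood apart within both groups.

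Ces1d lies on chromosome 8 at 93166068 to 93197838 on the minus strand (GRCm38, GENCODE vM21), among a cluster of closely related Ces1 genes. Its coding sequence of 1695 bases holds stretches identical to its neighbours, and reads from these cannot be assigned to 1 gene by sequence alone. Of the 1974 different 31-base words in its transcripts, 148 (7.50%) also occur in another gene. The longest runs shared with Ces1b and with Ces1g are printed because they show where counts could pass between paralogs. Capitals mark the identical run, and lower case the 20 bases on each side, read from the GENCODE vM21 transcripts. The run shared with Ces1b spans 66 bases, positions 979 to 1044 of the Ces1d coding sequence counted from the start codon. The run shared with Ces1g spans 57 bases, positions 1464 to 1520.
Ces1d beside Ces1b: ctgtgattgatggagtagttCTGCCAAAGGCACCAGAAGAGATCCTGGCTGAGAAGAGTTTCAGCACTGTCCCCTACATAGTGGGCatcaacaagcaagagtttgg
Ces1b: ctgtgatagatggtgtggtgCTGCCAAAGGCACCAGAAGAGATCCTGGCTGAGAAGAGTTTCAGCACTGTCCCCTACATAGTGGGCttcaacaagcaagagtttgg
Ces1d beside Ces1g: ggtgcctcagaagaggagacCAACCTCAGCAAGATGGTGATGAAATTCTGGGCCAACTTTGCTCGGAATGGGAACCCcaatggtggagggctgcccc
Ces1g: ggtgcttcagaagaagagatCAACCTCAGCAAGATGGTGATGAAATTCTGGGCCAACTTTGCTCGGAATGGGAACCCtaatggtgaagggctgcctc

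The paralogs that share these runs were scarce. Over the 6 libraries Ces1d had 1015 counts, Ces1f 26, Ces1g 16, Ces1c 10 and Ces1b 2, while Ces1a and Ces1h had none. Ces1f had 1, 0 and 1 counts in Control 1 to 3, against 16, 7 and 1 in Jag1 1 to 3, and Ces1g 2, 0 and 0 against 11, 0 and 3. Both sets of counts are far below the 209, 436 and 210 counts of Ces1d in Jag1 1 to 3. All of these are estimated counts, so they do not show how reads from shared runs were divided. Ces1e, at 36, 12 and 0 counts in Control 1 to 3, against 4, 11 and 42 in Jag1 1 to 3, was highest in the 2 libraries with most acinar transcripts. Its longest run shared with Ces1d spans 35 bases, positions 148 to 182 of the Ces1d coding sequence.

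Ces1d was higher in Jag1 islets than in Control islets. Its level was 4.06, 2.53 and 2.72 CPM in Control 1 to 3, against 11.1, 12.4 and 12.4 CPM in Jag1 1 to 3. The groups did not overlap, and the lowest Jag1 library stood 2.73-fold above the highest Control library. Group means were 3.10 ± 0.83 and 12.0 ± 0.75 CPM (SD, n = 3 each). The log2 fold change was 1.94 (SE 0.22), or 3.84-fold with a 95% interval of 2.77 to 5.33, and the adjusted p was 0.0071 by edgeR's quasi-likelihood test. In whole islets, fewer cells of a type and less RNA per cell cannot be told apart, and the same holds for increases.

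The call ended when Control 3 or Jag1 1 was left out. Without Control 3 the log2 fold change was 1.86 with an edgeR adjusted p of 0.0521, and without Jag1 1 it was 1.99 with an adjusted p of 0.055. The log2 fold change lay between 1.79 and 2.19 in all 18 alternative analyses, and 15 of them called it, the exceptions being these 2 and the fit with the replicate number as a block. Ces1d was 1 of 3 genes called in the whole table, with Jag1 and Hprt. The next genes by p, Tm4sf1 and Spp1, had an adjusted p of 0.0813 and fell just outside the threshold of 0.05.

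Called members numbered 1 of 8 by edgeR, where 0.0213% of all tested genes were called. The count was also 1 of 8 by DESeq2 (0.256% of genes called), by limma-voom (0.0284%) and in the authors' deposited table (0.0213%). The groups were separate for 1 of 8 members, and for 10.5% of the tested genes. Since Ces1d was taken for this difference, nothing is read from these counts. The authors' deposited table gives Ces1d a log2 fold change of 1.97 and an adjusted p of 0.035, and the other 7 genes values from -0.12 (Daglb) to 0.17 (Lipa) with adjusted p from 0.953 to 0.990.

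**Figure D1:**
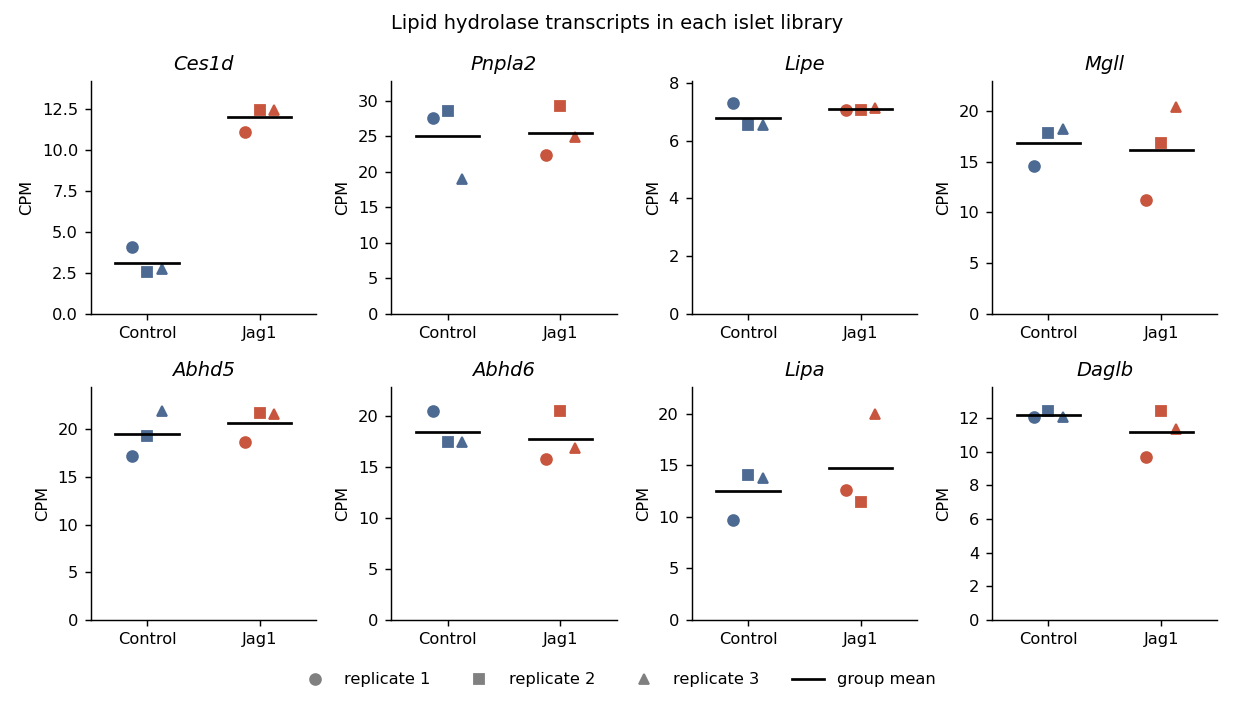
CPM of the 8 genes in each library, with Control in blue, Jag1 in red, symbols for the replicate number and a black line at the group mean. Ces1d is the 1 panel whose groups do not overlap, with Control at 2.53 to 4.06 and Jag1 at 11.1 to 12.4.

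The other carboxylesterases did not pass the test. The family has 19 genes in the table, of which 6 passed the filter and 5 had no count in any library. Per kilobase of transcript, the family sum was 7.88, 6.68 and 6.95 in Control 1 to 3, against 12.1, 12.95 and 14.4 in Jag1 1 to 3. Without Ces1d the sums were 5.86, 5.42 and 5.59 against 6.55, 6.76 and 8.16, so the groups did not overlap there either. They overlapped once Ces2e was left out as well. Ces1d made up 25.7%, 18.9% and 19.5% of the family sum in Control 1 to 3, against 45.8%, 47.8% and 43.1% in Jag1 1 to 3.

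Ces2e and Ces2g, named after their values were seen, held most of the rest. Ces2e was at 6.64, 7.04 and 9.04 CPM in Control 1 to 3, against 7.76, 10.5 and 10.9 in Jag1 1 to 3 (log2 fold change 0.36, SE 0.20, edgeR adjusted p = 0.955). Ces2g was at 1.87, 2.81 and 2.52 against 3.67, 3.01 and 4.84 CPM, without overlap (log2 fold change 0.67, SE 0.31, edgeR adjusted p = 0.955). In Control islets Ces2e was above Ces1d per kilobase in every library, and in Jag1 islets it was below.

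**Figure D2:**
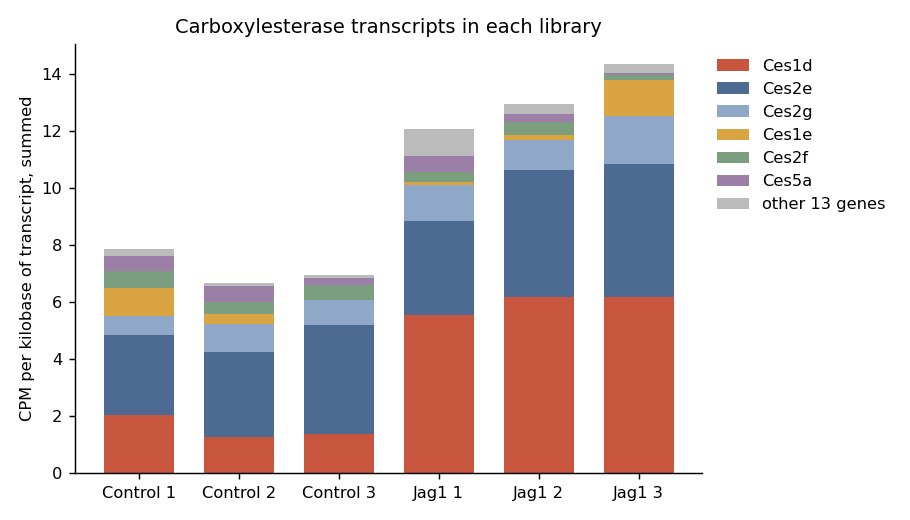
CPM per kilobase of transcript, stacked over the 19 carboxylesterase genes, in each library. The red Ces1d block is 1.26 to 2.03 high in Control and 5.54 to 6.19 in Jag1, and the dark blue Ces2e block is the larger of the 2 in Control and the smaller in Jag1.

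Genes of the first lipolytic step showed no detectable difference. Pnpla2 (chromosome 7, 141455198 to 141460743, plus strand) was at 27.7, 28.6 and 19.0 CPM in Control 1 to 3, against 22.4, 29.3 and 24.9 CPM in Jag1 1 to 3. Control 1 and Control 2 lay above Jag1 1 and Jag1 3, so the groups overlapped. The log2 fold change was 0.03 (SE 0.17), and the 95% interval of the fold, 0.790 to 1.31, excludes the size seen for Ces1d. Abhd5 (chromosome 9, 122351608 to 122381524, plus strand) was at 17.2, 19.2 and 22.0 CPM against 18.7, 21.7 and 21.6 CPM, with an interval of 0.868 to 1.30-fold. These groups overlapped as well.

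G0s2, the inhibitor of Pnpla2, had few counts. It had 5, 4 and 3 counts in Control 1 to 3, against 16, 25 and 16 in Jag1 1 to 3. In CPM that was 0.274, 0.220 and 0.204 against 0.850, 0.711 and 0.945, without overlap. Its log2 fold change of 1.80 (SE 0.53) had an edgeR adjusted p of 0.869, so it did not pass the test. The 95% interval was 1.55 to 7.78-fold. G0s2 passed the filter on low counts only through the Jag1 libraries, where it was high. Its separation, fold and interval are therefore a description. Per kilobase, G0s2 stood at 0.27 ± 0.04 in Control and 0.96 ± 0.14 in Jag1, against 17.0 ± 3.59 and 17.3 ± 2.36 for Pnpla2 (SD, n = 3 each).

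Lipe (chromosome 7, 25379527 to 25398710, minus strand) was the steadiest of the 8. It measured 7.30, 6.54 and 6.53 CPM in Control 1 to 3, against 7.07, 7.05 and 7.15 CPM in Jag1 1 to 3. The highest library stood 1.12-fold above the lowest, and the coefficient of variation over the libraries, 4.67%, was below the 8.77% that counting alone would give. The 95% interval of the fold was 0.802 to 1.36.

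Both monoacylglycerol lipases overlapped between the groups. Mgll (chromosome 6, 88724412 to 88828360, plus strand) was at 14.5, 17.9 and 18.3 CPM in Control 1 to 3, against 11.2, 16.9 and 20.4 CPM in Jag1 1 to 3, with an interval of 0.701 to 1.31-fold. Jag1 libraries held both its lowest and its highest value. Abhd6 (chromosome 14, 8002902 to 8056763, plus strand) was at 20.5, 17.5 and 17.4 CPM against 15.8, 20.5 and 16.9 CPM, with an interval of 0.774 to 1.20-fold. Of its 31-base words, 10.3% also occur in the pseudogene Gm1833, which was at 0 counts in these libraries.

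Lipa and Daglb act outside the droplet pathway. Lipa, lysosomal acid lipase (chromosome 19, 34492318 to 34527474, minus strand), was at 9.71, 14.0 and 13.7 CPM in Control 1 to 3, against 12.6, 11.5 and 20.02 CPM in Jag1 1 to 3. Jag1 3 was the highest library, 2.06-fold above the lowest. The log2 fold change of 0.23 (SE 0.23) became -0.05 without Jag1 3. The macrophage receptors Csf1r (28.5 CPM, against 9.72 to 13.2 elsewhere) and Mrc1 (10.4 CPM, against 1.74 to 4.20) were also highest in Jag1 3. These 2 were named after their values were seen. Of the 12 macrophage and leukocyte markers, 6 were highest in Jag1 3, 4 in Control 1 and 2 in Control 2, and their sum was highest in Control 1, at 449 CPM against 424 CPM in Jag1 3. Cd68 was highest in Control 2, at 5.67 CPM against 4.37 in Jag1 3. The part of these cells in the Lipa value was not tested.

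Daglb (chromosome 5, 143464584 to 143505942, plus strand) was at 12.1, 12.4 and 12.1 CPM in Control 1 to 3, against 9.67, 12.5 and 11.3 CPM in Jag1 1 to 3. Jag1 1 was low, and the other libraries lay close together. The interval was 0.728 to 1.15-fold. Its exons overlap those of Rac1 on the opposite strand, and 49.4% of its 31-base words lie in that or another gene, but 0.13% on the same strand. The kit marks strand, but no source used here gives the strand setting of the authors' counting, so the Daglb value is uncertain to that extent. Rac1, named for this overlap after its values were seen, was at 137 to 158 CPM (log2 fold change -0.01, SE 0.10). Opposite-strand overlap also touches 28.3% of the words of Abhd5 and 12.2% of those of Lipe.

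**Figure D3:**
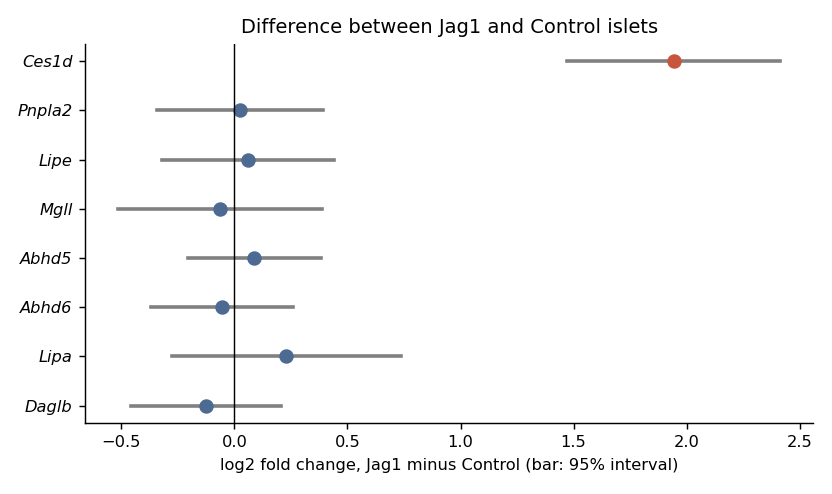
Log2 fold change of the 8 genes, Jag1 minus Control, with the edgeR estimate as a point and its 95% interval as a bar. Ces1d lies at 1.94, and the intervals of the other 7 genes include 0.

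Dagla, the paralog of Daglb that is the main diacylglycerol lipase of neurons, was lower in Jag1 islets before adjustment. It was at 47.6, 58.8 and 43.6 CPM in Control 1 to 3, against 33.9, 43.0 and 39.1 CPM in Jag1 1 to 3, without overlap. The log2 fold change was -0.37 (SE 0.14) and the edgeR adjusted p was 0.947, so it did not pass the test. Per kilobase it stood at 8.87 ± 1.40 in Control and 6.86 ± 0.81 in Jag1, above the 2.62 ± 0.04 and 2.40 ± 0.30 of Daglb (SD, n = 3 each).

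Dividing CPM by the mean length of each gene's protein-coding transcripts let the 8 genes be set against each other. In Control islets the order of mean levels per kilobase was Pnpla2 (17.0), Abhd6 (9.92), Abhd5 (9.29), Mgll (6.68), Lipa (4.21), Lipe (2.76), Daglb (2.62) and Ces1d (1.55). Abhd6 and Abhd5, and Lipe and Daglb, overlapped between libraries, and the other neighbours did not. In Jag1 islets Ces1d stood at place 5 in the order, at 5.97 ± 0.37, between Mgll at 6.39 ± 1.84 and Lipa at 4.96 ± 1.56 (SD, n = 3 each), and it overlapped with both. Abhd5 and Abhd6 overlapped there too. With the longest transcript as the length, Control means were 9.55 for Pnpla2, 4.24 for Mgll and 4.21 for Lipa, so the step from Mgll to Lipa was no longer seen. Lipe (1.83) and Daglb changed places. Ces1d still had the lowest mean, but its Control libraries overlapped with those of Lipe. The Control libraries of Pnpla2 and Abhd6 (mean 8.30) overlapped as well.

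**Figure D4:**
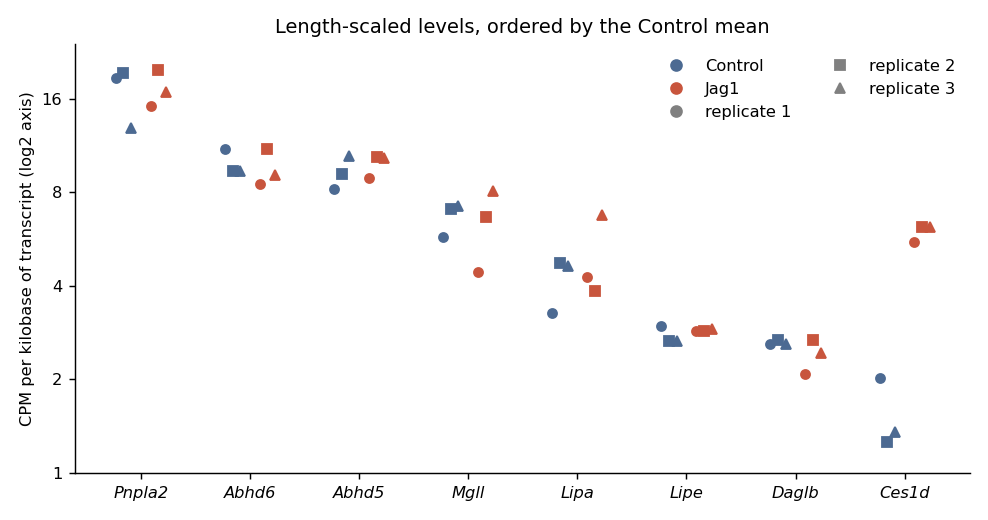
CPM per kilobase of transcript on a log2 axis for the 8 genes, ordered by the Control mean, with Control in blue, Jag1 in red and symbols for the replicate number. Ces1d moves from the bottom of the order, 1.26 to 2.03, to the range of Mgll and Lipa, 5.54 to 6.19.

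The wider lipid genes did not pass the test. Beside the 8, 138 genes in 9 lists covered other hydrolases, carboxylesterases, secreted lipases, droplet proteins, triglyceride synthesis, fatty acid oxidation, transcription regulators, lysosomal lipid handling and monoacylglycerol signalling. Of these, 109 passed the filter, 56 higher and 53 lower in Jag1, and 0 were called by edgeR, DESeq2 or limma-voom. By edgeR 6 had an unadjusted p below 0.05, as did 700 of all 14073 tested genes. The groups did not overlap for 17 of the 109, or 15.6%, where the share over all tested genes was 10.5%. The median log2 fold change was 0.006, against -0.004 over all tested genes.

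Among the droplet genes 7 of 10 were higher. The droplet list summed to 326, 347 and 349 CPM in Control 1 to 3, against 365, 361 and 368 CPM in Jag1 1 to 3, and the groups overlapped once Rab18 was left out. Hsd17b11, a droplet-associated dehydrogenase, was at 42.6, 40.1 and 37.0 CPM in Control 1 to 3, against 44.3, 48.7 and 46.2 in Jag1 1 to 3 (log2 fold change 0.22, SE 0.11, edgeR adjusted p = 0.955). For triglyceride synthesis 9 of 13 were higher, and Dgat2, which makes triglyceride from diacylglycerol, was at 1.76, 1.54 and 1.22 against 2.34, 1.82 and 2.60 CPM (edgeR adjusted p = 0.955). Of 20 genes of fatty acid uptake and oxidation 10 were higher and 10 lower. Their sum was 740, 738 and 734 CPM against 788, 816 and 750, and leaving out Hadhb, Acsl5 or Cpt1a made the groups overlap. Hadhb, a subunit of the mitochondrial trifunctional protein, was at 127, 113 and 129 against 173, 153 and 136 CPM, with an edgeR adjusted p of 0.937.

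Of the other hydrolases 9 of 15 were higher and 6 lower. Pnpla1, of the Pnpla2 family, had a log2 fold change of -1.37 (SE 0.49, edgeR adjusted p = 0.937). It had 24, 19 and 18 counts in Control 1 to 3, against 5, 23 and 7 counts in Jag1 1 to 3. In CPM that was 1.32, 1.04 and 1.22 against 0.266, 0.654 and 0.413, without overlap. Pnpla1 passed the filter on low counts through the Control libraries, where it was high, so these values are a description. Of 17 transcription regulators 7 were higher, and of 14 lysosomal genes 7. Of the 9 signalling genes 4 were higher. Unc13a, a vesicle priming protein that binds diacylglycerol, was at 57.6, 62.2 and 69.6 CPM in Control 1 to 3, against 41.7, 50.2 and 52.6 CPM in Jag1 1 to 3, with an edgeR adjusted p of 0.915. Secreted pancreatic lipases, 0 of 6 higher, varied with the acinar share, and 3 of them are also on the acinar list. Their sum ran from 782 to 24468 CPM in Control and from 1632 to 23084 CPM in Jag1.

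Adipocytes express Ces1d, Pnpla2 and Lipe, and their defining markers were at or near 0. Adipoq had 1 count over the 6 libraries, Lep and Cfd 0, Retn 2, Adig 4, Pck1 2, Plin1 16 and Cidec 13. The adipocyte markers that passed the filter, 4 of 14, were Pparg, Lpl, Fabp4 and Acvr1c, which islets also express. The 14-gene sum was 258 to 291 CPM in Control and 262 to 283 CPM in Jag1. Ces1d is abundant in liver, and 9 hepatocyte markers, Ttr left out since islets express it, summed to 3.40, 4.35 and 4.08 CPM in Control 1 to 3, against 4.62, 4.83 and 4.61 CPM in Jag1 1 to 3. The summed groups did not overlap, but they overlapped once Fgb was left out. Of the 3 hepatocyte genes that passed the filter, Alb and the islet-expressed Ttr were lower in Jag1. Apoa2 hardly differed (log2 fold change -0.04, SE 0.32). Markers below the filter went both ways. Serpina1a was at 0.055, 0.275 and 0 CPM in Control 1 to 3, against 0.106, 0.882 and 0.709 in Jag1 1 to 3. Apoa1 was at 0.329, 0.275 and 0.272 CPM against 0.213, 0.057 and 0.177. Serpina1a and Apoa1 were named after their values were seen. The part of these markers in the Ces1d difference was not tested. Alb, the defining marker, was at 0.933, 0.825 and 1.43 CPM against 0.797, 0.455 and 0.650 (edgeR adjusted p = 0.955). Fgb, a fibrinogen chain named after its values were seen, was at 0.220, 0.055 and 0.136 CPM against 1.12, 0.967 and 0.472, and it did not pass the filter on low counts.

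Summed markers of 2 other cell types were higher in every Jag1 library than in every Control library. In each, the sums overlapped once 1 gene was left out. The 14-gene duct sum was 630, 641 and 575 CPM in Control 1 to 3, against 763, 768 and 737 CPM in Jag1 1 to 3, with 13 of 14 markers higher, 0 called by edgeR, 6 at an unadjusted p below 0.05 and 1 called by DESeq2. Without Spp1, which encodes osteopontin, the duct sums were 587, 611 and 525 CPM against 661, 658 and 593, and overlapped. Krt19, a duct keratin, was at 3.24, 1.81 and 1.43 CPM against 21.9, 3.13 and 7.44. The 14-gene sum for stellate cells, pericytes and fibroblasts was 255, 304 and 310 against 352, 355 and 541 CPM, with 13 of 14 higher, 0 called by edgeR, 2 at an unadjusted p below 0.05 and 1 called by DESeq2. Without Rgs5, a pericyte marker, they were 114, 155 and 130 CPM against 142, 131 and 286, and overlapped. Spp1 and Rgs5 were singled out here after their values were seen. Col1a1 in the same list was at 2.03, 4.57 and 2.52 CPM in Control and 2.98, 0.796 and 12.3 CPM in Jag1, overlapping. Taken gene by gene, the groups did not overlap for 5 of the 14 duct markers, all higher in Jag1. The same held for 2 of the 14 stellate, pericyte and fibroblast markers, both higher. Over all tested genes the share without overlap was 10.5%. Of all 14073 tested genes 6902 were higher in Jag1, and 700 had an unadjusted edgeR p below 0.05. DESeq2 called 36 of 14060 genes (0.256%).

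All 11 endothelial markers were higher, 0 called by edgeR and 1 at an unadjusted p below 0.05, and their sum overlapped at 518 to 549 CPM in Control and 476 to 661 CPM in Jag1.

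The 8-gene alpha cell sum was lower in Jag1 libraries, at 35797, 57640 and 51974 CPM in Control 1 to 3, against 31891, 15286 and 33515 CPM in Jag1 1 to 3. Without Gcg, which encodes glucagon, these sums overlapped, with Control 1 at 2129 CPM and Jag1 3 at 2189 CPM. Of the 8 markers 7 were lower, 0 called by edgeR and 5 at an unadjusted edgeR p below 0.05. The groups did not overlap for 3 of them, Gcg, Irx1 and Irx2, where the share over all tested genes was 10.5%. Irx1 and Irx2 were named after their values were seen. Gcg was at 33668, 54676 and 49130 CPM against 29958, 13828 and 31326 (edgeR adjusted p = 0.955). The part of these lists in the Ces1d difference was not tested. The acinar sum, 2995 to 74659 CPM in Control and 5277 to 75902 CPM in Jag1, and the macrophage and leukocyte sum, 267 to 449 and 253 to 424 CPM, overlapped. With Control 1 and Jag1 3, the libraries richest in acinar transcripts, both left out, Ces1d had a log2 fold change of 2.17 and an edgeR adjusted p of 0.0079. With acinar markers as a covariate it was 1.95 with an edgeR adjusted p of 0.00473. With the adipocyte markers that passed the filter as a covariate it was 1.79, with an edgeR adjusted p of 0.0428. Ces1d was chosen by this difference, so these fits are a description. The part of acinar tissue in the Ces1d difference was not tested.

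**Figure D5:**
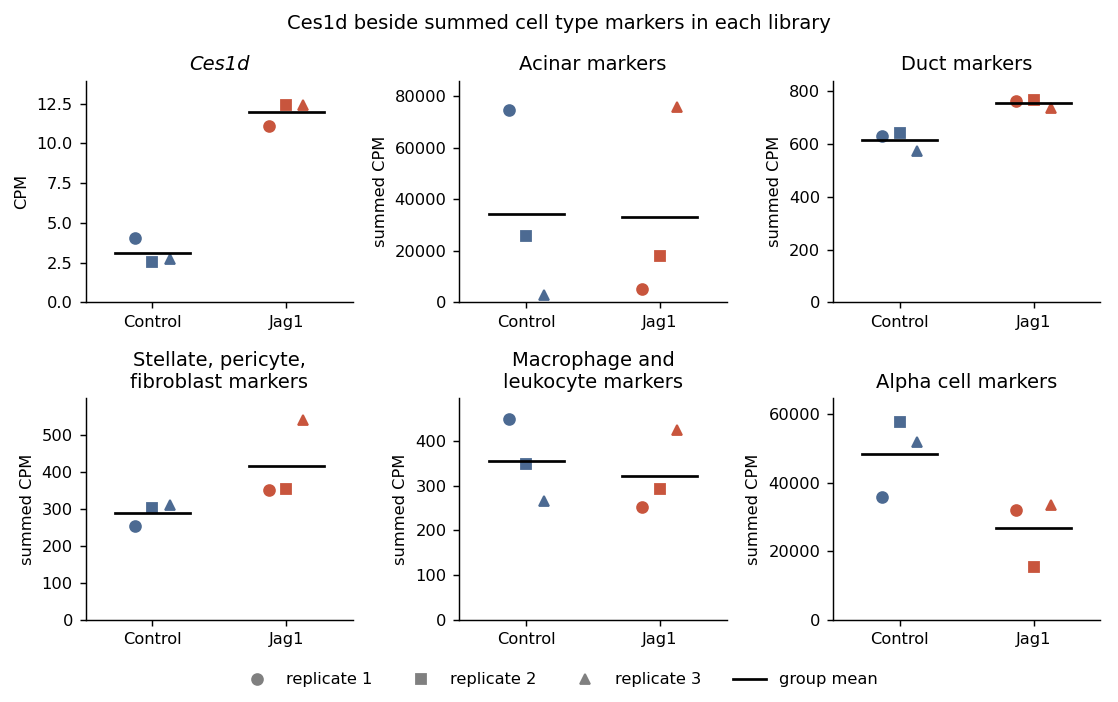
Ces1d in CPM and the summed CPM of 5 cell type marker lists in each library, with Control in blue, Jag1 in red, symbols for the replicate number and a black line at the group mean. Ces1d, duct and stellate sums are higher in all Jag1 libraries and the alpha sum is lower (each of these 3 sums overlaps without 1 gene), and the acinar and leukocyte sums overlap.

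The genes whose log2 CPM most resembled that of Ces1d over the 6 libraries, among 13282 genes, were Gas6 (Pearson r 0.99), Bhlhe40 (0.99), Llph (0.99), Jag1 (0.98) and Gng11 (0.98). Among the most opposite were Zkscan2 and Hprt, at -0.99 and -0.98. These libraries form 2 groups, so any gene that separates them scores high, and r is given as a description. Gas6, a ligand of TAM receptor kinases, was at 14.4, 13.035 and 12.1 CPM in Control 1 to 3, against 21.6 ± 1.16 CPM in Jag1 (SD, n = 3). The other 7 hydrolases ranged from an r of -0.50 for Daglb to 0.68 for Lipe.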

How the data were processed

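The authors deposited a gene table of estimated counts for 6 islet libraries made with a stranded mRNA kit, per the labels' protocols. Tools listed in the submitters' processing notes are bcl2fastq, kallisto and limma, and the build is GRCm38 (mm10). Versions, annotation and strand setting: not given in the sources used here. A deposited limma table of the authors gives a log2 fold change, mean log2 expression, a p-value with its adjusted p-value, and a t and a B score for each gene.

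Rounded counts went into edgeR 4.0.16 under R 4.3.3 (filterByExpr with a minimum count of 10, TMM, robust quasi-likelihood test, Benjamini-Hochberg adjustment over 14073 genes, threshold 0.05). A row naming no gene, 0.00896% to 0.0155% of counts, was left out. DESeq2 1.42.0 and limma-voom 3.58.1 were alternatives, with other scalings, filters, covariates, a replicate block and left-out libraries. The adipocyte covariate, the mean log2 CPM of Pparg, Lpl, Fabp4 and Acvr1c, does not isolate adipocytes, since islets also express these genes. Of these, Acvr1c was lower in every Jag1 library than in every Control library, and the others overlapped. A gene with no count could lie at up to 3 counts, or 0.0853 to 0.204 CPM, for counting error only. Intervals are 95%. An exact permutation test of 3 against 3 libraries cannot go below p = 0.1, so none was used. Log2 CPM used a prior count of 2.

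The 8 genes and the lists were chosen with earlier results of these data known. The text names the 8 genes, Jag1, genes of smallest p in each list (up to 3), the first markers of each cell type list and the genes most and least like Ces1d; others are said to be chosen after their values were seen. A gene that this rule takes is not reported here. The code was tested on simulated data. Figures were drawn with matplotlib 3.10.9.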

Additional observations from a re-analysis of the deposited data

How the results depend on the processing

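Ces1d kept its direction in all 18 alternatives, with log2 fold changes of 1.79 to 2.19, and was called in 15; leaving out 1 library gave 1.81 to 2.19 and 0 to 1 members called. With the replicate number as a block it was 1.97 (edgeR adjusted p = 0.0695), and 0 members were called. Deviations from the group means over all tested genes correlated at -0.19, 0.11 and -0.29 between same-numbered libraries. Not every library correlated best with its own number, and Control 1 with Jag1 3, both rich in acinar transcripts, gave 0.29. Such deviations cancel within each group and can follow the acinar share, so they cannot decide whether equal numbers are pairs. The count of genes called, 3, became 10 with library totals without acinar and insulin genes, 9 with no filter, 36 with DESeq2, 5 with the adipocyte covariate and 7 without Control 1 and Jag1 3, and 2 to 6 without 1 library. No other member was called in any alternative, the lowest adjusted p being 0.881. Lipe and Daglb kept their sign throughout. Small estimates changed sign: Abhd6 to 0.0196 with totals without acinar and insulin genes, Pnpla2 to -0.0134 and Mgll to 0.15 with the adipocyte covariate, and, without Control 1 and Jag1 3, Abhd5 to -0.0162, Abhd6 to 0.0683 and Lipa to -0.20. Leaving out 1 library gave -0.18 to 0.0317 for Abhd6, -0.14 to 0.13 for Pnpla2, -0.26 to 0.14 for Mgll and -0.0516 to 0.39 for Lipa. The causes were not tested. With the longest transcript as length, Control levels per kilobase became 9.55 for Pnpla2, 8.30 for Abhd6, 6.17 for Abhd5, 4.24 for Mgll and 1.83 for Lipe. Depth gave Ces1d 40 to 74 counts, and G0s2 3 to 5, in each Control library. Leaving single genes out of list sums was added after seeing the data.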
